A study of Xenopus laevis with 17 samples.

Results

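The kinesins that do not belong to the transport machinery of the cilium were followed in frog ectoderm that was being turned into multiciliated cells. The set holds every gene model whose name begins with KIF and a number, or is KIFC1, KIFC2 or KIFC3, except KIF3A, KIF3B, KIF3C, KIF9 and KIF17. It came to 50 gene models of 30 gene symbols, out of 24383 models in all. By known role, 21 models belonged to mitotic kinesins, 5 to kinesins of the axoneme or cilium, and 24 to cargo and other cytoplasmic kinesins.

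Kinesins are motor proteins that burn ATP to move along microtubules or to shorten their ends. Mitotic kinesins build the spindle, move chromosomes and finish cell division. Cargo kinesins carry vesicles and organelles, and a few kinesins work in cilia, where they set length or help to build the beating axoneme. Multiciliated cells have left the cell cycle and grow many motile cilia, so a tissue of such cells brings all of these jobs together.

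RNA was sequenced from animal caps of Xenopus laevis, the ectoderm cut from embryos at stage 10, with 20 caps per condition. Every RNA group was injected with mRNA of Multicilin (MCIDAS-HGR, an inducible fusion), which drives ectoderm cells to the multiciliated fate, and dexamethasone at 20 µM was given at mid-stage 11. Caps were collected 9 h later at 22 °C, at stage 18. The control had Multicilin alone (n = 3, libraries re-used from an earlier study), and the other groups had in addition Cas9 protein with a foxj1 guide RNA (n = 2), Cas9 protein with a foxn4 guide RNA (n = 2) or a foxn4 morpholino, an antisense oligo (n = 2). The targeted genes were not called lower. Over 3 models, FOXJ1 stood between 139 and 702 CPM in the control and between 401 and 1192 CPM with Foxj1 CRISPR. FOXN4, over 2 models, stood between 48.3 and 404 CPM in the control, between 216 and 386 CPM with Foxn4 CRISPR, and between 528 and 563 CPM with the morpholino. None of these models was called in its own perturbation, and RNA level does not show whether a guide cut or a morpholino acted. All control libraries are from the earlier study and all perturbed libraries from the new one, so for each contrast against Multicilin alone, study and perturbation cannot be told apart. Nothing in the labels states that replicates came from separate clutches. The p-values therefore measure only how far these libraries spread, which may be technical.

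Libraries held between 8265823 and 22041340 estimated counts. Levels are given as CPM, the counts in a library scaled to the same total of a library's estimated counts. They are used to compare 1 model between libraries, and levels of different models are compared only as TPM, which allow for length. CPM leave out the scaling factors of the edgeR fit, 0.791 to 0.916 in the control and above 1 in every perturbed library. CPM divided by these factors are higher in the control, and lower in the perturbed libraries, than the CPM given. Overlap of libraries is stated on CPM unless scaling is named. Keratins and other epidermal ectoderm markers summed to between 28856 and 46074 CPM in every library, and multiciliated markers to between 7568 and 12462 CPM. Control replicate 2 stood apart, with 7568 CPM of multiciliated markers against 11549 and 12462 in the other controls, and with 14199 CPM of secretory cell markers against 6888 and 4515. Shares of all models called higher and lower were 19.8% and 20.7% with Foxj1 CRISPR, 12.6% and 10.7% with Foxn4 CRISPR, and 23.9% and 21.1% with the morpholino. Of the 21 multiciliated marker models, 13 were lower and 2 higher in the Foxj1 CRISPR caps, 2 lower and 1 higher in the Foxn4 CRISPR caps, and 12 lower and 2 higher with the morpholino. Neural markers were higher in 12, 10 and 12 and lower in 3, 0 and 2 of 20 tested models in those groups, while their summed level overlapped that of the control (975 to 1246 CPM in the control, 925 to 1291 CPM in the others). Ionocyte markers were lower in 7, 1 and 15 and higher in 5, 5 and 5 of 22 models, and mesoderm markers higher in 5, 5 and 3 and lower in 2, 2 and 3 of 11. Secretory cell markers summed to between 1974 and 3646 CPM in every perturbed library, below all controls. Of these, 3 TFF2 models were at 0 in every library, and the muscle actin model ACTA1 on scaffold 2589 was at 0 too. The part of these other cell types in the kinesin results was not tested, and in bulk tissue fewer cells of a type and less RNA per cell cannot be told apart.

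Fold changes are log2 values ± standard error from edgeR's quasi-likelihood test over all 9 RNA libraries. A model is called higher or lower at a Benjamini-Hochberg adjusted p under 0.05 over all 19058 models tested. Of the 50 kinesin models, 44 passed the filter on low counts. The neuronal motor KIF1A was near 0 in both of its models, at most 0.326 CPM, and KIF21B on scaffold 51808 was at 0 in all libraries. KIF26B on scaffold 34423, KIFC3 on scaffold 135348 and the second KIF4A model of scaffold 43874 stayed at or under 0.887 CPM in every library. These 6 models were not tested. Among the 44 tested, 33 were called in at least 1 of 6 comparisons. The like share over all models is not given, so this count describes the members only.

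X. laevis keeps paired copies of many genes, and 17 of the 30 symbols had 2 or more models. Reads that match more than 1 model were shared out by the authors' software. The share of reads that matched a tested kinesin model and nothing else ranged from 0.715 to 100%, with a median of 57.9%, and it was under 50% in 20 of the 44 models. Values of paired copies are therefore uncertain, and the number of the scaffold is given with each symbol. The library kit kept no strand, and 9 kinesin models overlapped another model. Reads at such overlaps were not assigned alike in all groups. At KIF19 nearly all reads of the CRISPR libraries matched it alone, against 3, 6 and 5 in the control and 0 with the morpholino. KIF22 on scaffold 11418 likewise had far more reads of its own in the CRISPR libraries. At these models and the models that overlap them, changes between CRISPR and other libraries cannot be told apart from this difference. Its cause was not tested, nor whether strand was treated alike in all libraries.

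In the control caps the most abundant kinesin for its length was KIF2A on scaffold 99008, a motor that shortens microtubule ends, at 207 ± 53.0 TPM (SD, n = 3). The next 3 were all kinesins of the cilium list. KIF24 stood at 85.8 ± 33.0 TPM, KIF27 on scaffold 293433 at 79.6 ± 22.7 TPM and KIF6 at 49.1 ± 12.8 TPM. The control ranges of KIF24 and KIF27 overlapped (53.5 to 120 and 62.3 to 105 TPM), so the order of those neighbours was not beyond their spread, while the lowest KIF2A value, 148 TPM, was above both. The highest mitotic model, KIF20A on scaffold 100253, ranked sixth at 44.7 ± 4.75 TPM.

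The balance between the roles differed between groups. Mitotic models took 21.2, 31.5 and 21.5% of the summed kinesin TPM in the control libraries, with the highest value in control replicate 2. They took 48.9 and 47.3% in the Foxj1 CRISPR caps, 32.1 and 37.3% with Foxn4 CRISPR and 39.0 and 41.1% with the morpholino. Every perturbed library was thus above every control library, by the least margin with Foxn4 CRISPR. The summed TPM of all 50 models hardly separated the groups, at 700 to 960 in the control and 774 to 989 in the others. The share of cargo kinesins was lower in every perturbed library, at 30.6 to 39.2% against 44.8 to 50.6% in the control. KIF2A on scaffold 99008, which also works in the spindle, is counted in the cargo list. In the control it gave a mean of 207 TPM, where the list summed to 314 to 448 TPM. It gave 123 TPM with Foxj1 CRISPR, 146 with Foxn4 CRISPR and 145 with the morpholino, where the list summed to 257 to 378 TPM. The second KIF2A model, on scaffold 160877, gave means of 44.9, 23.1, 40.1 and 60.8 TPM in the same order of groups. In the control the whole mitotic list summed to 181 to 221 TPM, close to the mean of KIF2A on scaffold 99008 alone. Shares with KIF2A left out of the cargo list or moved to the mitotic list were not worked out. The separation of the mitotic and cargo shares is therefore given only for KIF2A in the cargo list. The share of the cilium list was 32.1, 23.7 and 27.9% in the control and 20.1 and 20.5% with Foxj1 CRISPR, below all controls, while with Foxn4 CRISPR (28.7 and 25.3%) and the morpholino (22.8 and 28.3%) the groups overlapped the control. These shares are a description and were not tested.

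Kinesins of the axoneme and cilium were lower or uncalled. Over all roles 26 of 44 tested kinesin models were called with Foxj1 CRISPR, 8 with Foxn4 CRISPR and 23 with the morpholino, where 40.5%, 23.2% and 45% of all models were called. With Foxj1 CRISPR, 3 of 5 tested cilium models fell and 0 rose, with a median log2 change of -1.31 against 0.01 over all models, where 20.7% of models fell. In edgeR the counts at an unadjusted p under 0.05 were again 3 lower and 0 higher, and DESeq2 gave the same split of 3 and 0. With Foxn4 CRISPR 1 of 5 fell (background 10.7%), and with the morpholino 3 of 5 fell (background 21.1%). No model rose in either group at an adjusted p under 0.05 or at an unadjusted p under 0.05, nor in DESeq2. The Foxj1 count was 1 without Foxj1 CRISPR replicate 1 and 3 without any other library. The Foxn4 CRISPR count was 0 without control replicate 1 or 3 or either Foxn4 CRISPR library, and 2 without control replicate 2. The morpholino count was 0 without morpholino replicate 1, 1 without control replicate 1 or morpholino replicate 2, and 2 or 3 without any other library. On unique reads 2 fell and 1 rose with Foxj1 CRISPR, 1 fell and 1 rose with Foxn4 CRISPR, and 1 fell with the morpholino. On all matching reads 4, 4 and 3 fell, and 1 rose with the morpholino. With so few models, the counts describe the members and nothing wider.

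KIF6, which in mice is found in the cilia of brain ependyma, fell in all 3 perturbed groups. Its model lies at 719413 to 861694 on the minus strand of scaffold 102974 of the version 7.1 assembly. It stood at 94.5, 61.0 and 107.7 CPM in the control libraries, at 28.9 and 43.7 CPM with Foxj1 CRISPR, at 39.2 and 44.6 CPM with Foxn4 CRISPR, and at 27.7 and 59.7 CPM with the morpholino. Every perturbed library lay below the lowest control library, which was control replicate 2. The log2 changes were -1.71 ± 0.42 (adjusted p = 0.0094) with Foxj1 CRISPR, -1.35 ± 0.41 (adjusted p = 0.0393) with Foxn4 CRISPR and -1.44 ± 0.41 (adjusted p = 0.0171) with the morpholino. The first call ended without Foxj1 CRISPR replicate 1 (-1.44) and the last without morpholino replicate 1 (-0.97). The Foxn4 CRISPR call ended without control replicate 1 (-1.28), control replicate 3 (-1.12), or either of its own libraries (-1.26 and -1.44).

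KIF27, the relative of the hedgehog kinesin KIF7 that in mice works with the kinase STK36 in building motile cilia, had 2 models with unlike levels. The model at 77057 to 106440 on the minus strand of scaffold 293433 stood at 295.9, 173 and 209 CPM in the control and at 119.6 and 126 CPM in the Foxj1 CRISPR caps. The groups did not overlap, and the log2 change was -1.31 ± 0.29 (adjusted p = 0.00565), a call that ended without Foxj1 CRISPR replicate 1 (-1.27). With the morpholino it stood at 173 and 161 CPM, which overlapped the lowest control. After division by the scaling factors of the fit, the morpholino libraries lay below all controls. The model fell with the morpholino by a log2 change of -0.89 ± 0.28 (adjusted p = 0.0268). That call ended without control replicate 1 (-0.64) or either morpholino library (-0.90 for each), and on unique reads (-0.75, adjusted p = 0.0595). With Foxn4 CRISPR the values of 191 and 155 CPM lay within or below the control range and were not called (-0.67 ± 0.28, adjusted p = 0.111). The second KIF27 model, on scaffold 9266, stayed between 5.08 and 14.9 CPM over all libraries and was not called in any comparison.

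KIF24, which in human cells holds back the growth of the primary cilium at the mother centriole, lies on the same scaffold as KIF27, at 8191 to 46796 on the plus strand. It stood at 330, 152 and 253 CPM in the control, 299 and 354 CPM with Foxj1 CRISPR, 325 and 357 CPM with Foxn4 CRISPR, and 323 and 332 CPM with the morpholino. All groups overlapped the control and no comparison was called, with log2 changes from -0.23 to 0.21. Of its reads, 99.4% matched no other model, although the model overlaps NUDT2 on the minus strand. The 2 neighbours on this scaffold thus did not change alike in the Foxj1 CRISPR caps (-1.31 ± 0.29 for KIF27 and -0.03 ± 0.33 for KIF24), though the difference between them was not tested.

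**Figure D1:**
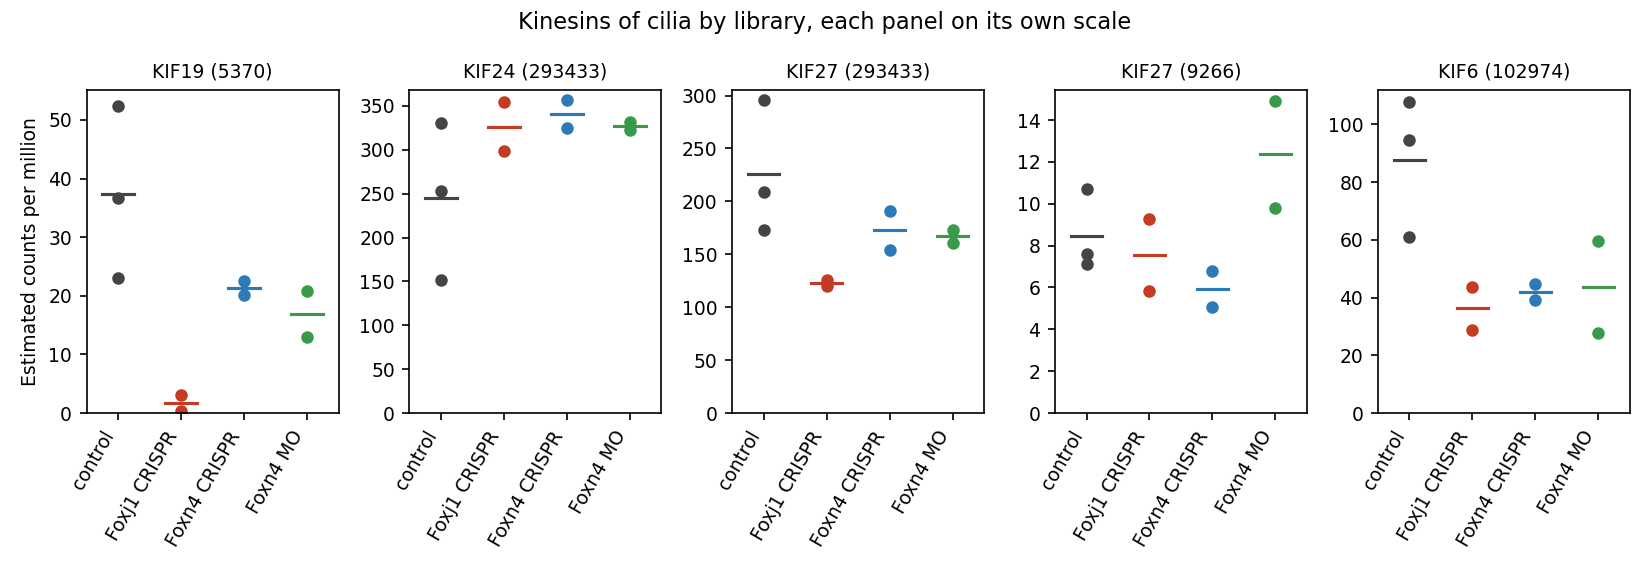
CPM of the 5 models of axonemal and cilium kinesins, 1 panel per model with its scaffold number, with points for single libraries and short lines for group means (control n = 3, other groups n = 2). KIF19 and KIF6 lie below the control in every perturbed library, whereas KIF24 overlaps the control in all groups.

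KIF19, which in mice trims the tips of motile cilia, had the largest fall of the 44 tested kinesin models, but its reads were assigned in different ways in different libraries. Its model at 1244996 to 1387968 on the plus strand of scaffold 5370 stood at 52.4, 23.1 and 36.6 CPM in the control and at 0.407 and 3.13 CPM with Foxj1 CRISPR. Foxn4 CRISPR gave 22.5 and 20.2 CPM and the morpholino 12.9 and 20.8 CPM. All perturbed libraries were below all controls, and the Foxj1 CRISPR libraries were the lowest. The log2 change was -4.83 ± 0.73 (adjusted p = 0.000871) with Foxj1 CRISPR, a call that held whichever library was left out. It was -1.59 ± 0.59 (adjusted p = 0.0486) with the morpholino and -1.10 ± 0.58 (adjusted p = 0.187) with Foxn4 CRISPR. The morpholino call ended without control replicate 1 (-1.26), control replicate 3 (-1.58), either Foxn4 CRISPR library (-1.60 for each) or either morpholino library (-1.26 and -2.05).

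The KIF19 model shares 142960 bp with a BTBD17 model on the minus strand, at 1245009 to 1388045. In the control, 1411, 607 and 1389 reads matched KIF19, of which 3, 6 and 5 matched it alone. In the Foxj1 CRISPR libraries 5 and 39 reads matched it, of which 5 and 38 matched it alone, and in the Foxn4 CRISPR libraries 186 and 250 matched it, every one of them alone. In the morpholino libraries 137 and 417 reads matched it and 0 matched it alone. BTBD17 itself, a protein with a BTB domain, fell with Foxj1 CRISPR (a log2 change of -8.05 ± 0.83, adjusted p = 0.000194), with Foxn4 CRISPR (-8.89 ± 0.92, adjusted p = 0.00034) and in the morpholino caps (-2.09 ± 0.54, adjusted p = 0.0103). It had 497, 198 and 717 reads of its own in the control and at most 1 in each CRISPR library. The CRISPR changes of BTBD17, too, cannot be told apart from the difference in read assignment. On reads that matched KIF19 alone, its Foxj1 change turned to 2.54 (adjusted p = 0.0186). On all matching reads it was -5.46 (adjusted p = 0.000367). Which of the overlapping models gave the shared reads of the control cannot be told from these counts, so the fall of KIF19 rests on how shared reads are treated. Between the CRISPR groups, where nearly all its reads matched it alone, KIF19 was higher with Foxn4 CRISPR than with Foxj1 CRISPR, by a log2 change of 3.74 ± 0.72 (adjusted p = 0.0339).

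**Figure D2:**
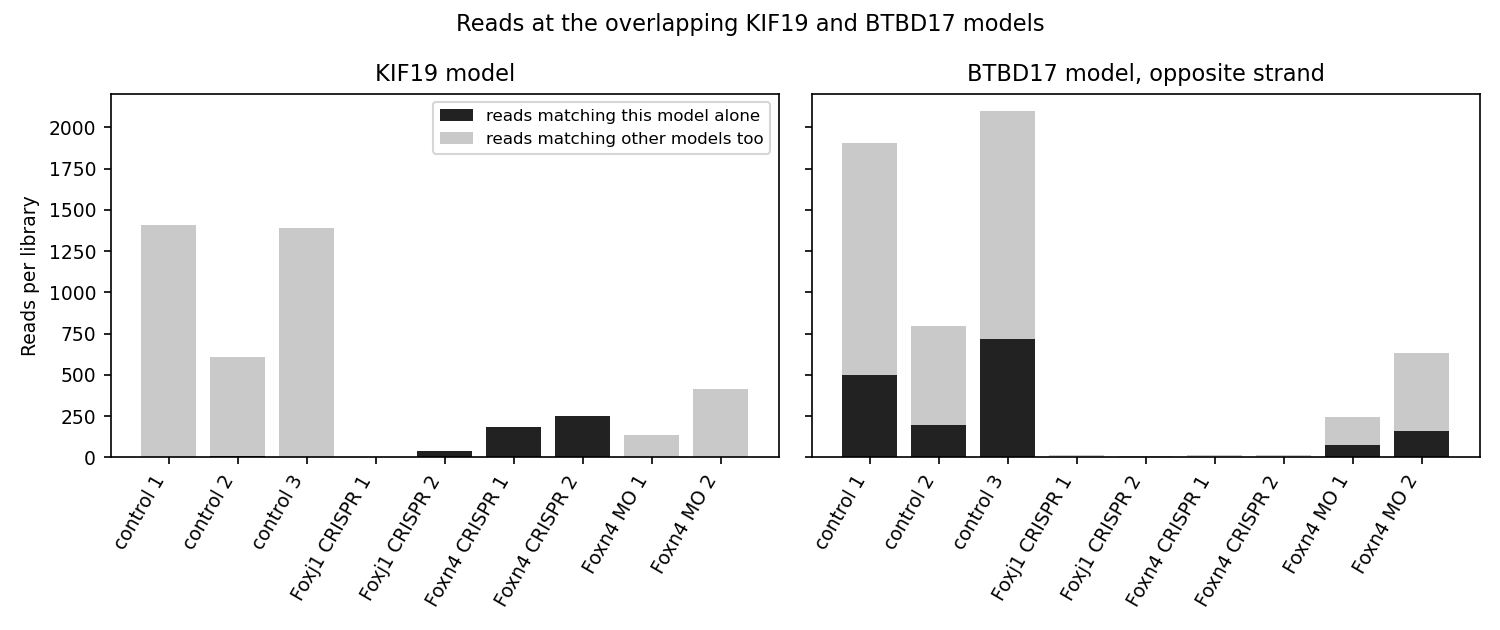
Reads per library at the KIF19 model (left) and at the BTBD17 model that overlaps it on the other strand (right), with black for reads that match that model alone and grey for reads that match other models too. Control and morpholino reads at KIF19 are nearly all shared, and the 186 and 250 reads of the Foxn4 CRISPR libraries are all its own.

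Mitotic kinesins that were called were mostly higher, and most of these calls were in the Foxj1 CRISPR caps and with the morpholino. With Foxj1 CRISPR 11 of 20 tested models rose and 0 fell, where 19.8% of all models rose and 20.7% fell, and the median log2 change was 0.86 against 0.01 over all models. At an unadjusted p under 0.05, edgeR counted 13 higher and 0 lower, and DESeq2 called 11 higher and 0 lower. With the morpholino 7 rose and 1 fell (background 23.9% and 21.1%, median 0.76). With Foxn4 CRISPR 2 rose and 0 fell (background 12.6% and 10.7%, median 0.38), with 5 higher and 1 lower at an unadjusted p under 0.05 and 2 higher and 0 lower in DESeq2. KIF2A, which also works in the spindle, is counted in the cargo list and not here. Both of its models were called lower with Foxj1 CRISPR (-1.13 and -1.40). The share of models in the mitotic list that rose lay above the background with Foxj1 CRISPR and near it with Foxn4 CRISPR. The Foxj1 count was 4 without either of the Foxj1 CRISPR libraries and between 8 and 11 without any other library. The Foxn4 CRISPR count was 0 without either Foxj1 CRISPR library or either Foxn4 CRISPR library and 1 without control replicate 3 or either morpholino library. The morpholino count of rises was between 5 and 9 without any 1 library, and without control replicate 2 it was 9. As a group the mitotic models summed to 432, 448 and 390 CPM in the control, 803 and 904 CPM with Foxj1 CRISPR, 514 and 654 CPM with Foxn4 CRISPR, and 798 and 699 CPM with the morpholino, all above the control. Divided by the scaling factors of the fit, a choice made after seeing the data, the sums were 526, 489 and 493 in the control, 713 and 808 with Foxj1 CRISPR, and 671 and 637 with the morpholino. Foxn4 CRISPR then gave 511 and 643, and its replicate 1 lay inside the control range.

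KIF22, a chromokinesin that pushes chromosome arms from the poles, had the largest Foxj1 fold among the named mitotic models. On scaffold 11418, at 185612 to 197507 on the plus strand, it stood at 5.45, 11.9 and 6.45 CPM in the control, 45.8 and 40.1 CPM with Foxj1 CRISPR, 21.3 and 16.9 CPM with Foxn4 CRISPR and 25.8 and 19.2 CPM with the morpholino. No perturbed library overlapped the control, and the Foxj1 CRISPR libraries were highest. The log2 changes were 2.04 ± 0.31 (adjusted p = 0.000913), 1.02 ± 0.31 (adjusted p = 0.0392) and 1.08 ± 0.31 (adjusted p = 0.0174). This model, too, overlaps another, PAGR1 on the minus strand, and only 0, 3 and 0 control reads matched it alone, against 289 and 268 with Foxj1 CRISPR, 97 and 104 with Foxn4 CRISPR, and 1 and 8 with the morpholino. On all matching reads the change was 0.83 (adjusted p = 0.0192) with Foxj1 CRISPR, and 0.38 and 0.46 with Foxn4 CRISPR and the morpholino, neither of them called. The Foxj1 call held whichever library was left out. The Foxn4 CRISPR call ended without control replicate 1 (0.85), control replicate 3 (0.95), either Foxj1 CRISPR library (1.02 for each) or either Foxn4 CRISPR library (0.85 and 1.19). The morpholino call ended without control replicate 3 (0.99) or morpholino replicate 1 (0.91).

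The second KIF22 model, on scaffold 45548, also overlaps a PAGR1 model, here on the plus strand, and 37.3% of its reads matched it alone. It stood at 30.4, 38.0 and 56.1 CPM in the control and between 84.7 and 130.5 CPM in the perturbed libraries. It was above the control in all of them, and it was called with the morpholino alone (1.02 ± 0.30, adjusted p = 0.0191), where the call ended without control replicate 1 (0.84) or morpholino replicate 2 (0.73). With both models summed per symbol, KIF22 was higher by a log2 change of 1.06 with Foxj1 CRISPR, 0.88 with Foxn4 CRISPR and 1.05 with the morpholino, and each was called. Such sums do not settle how reads shared with PAGR1 were assigned.

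KIF20A, which carries the chromosomal passenger complex to the midzone late in division, rose most in the morpholino caps. On scaffold 5925, at 9658865 to 9685667 on the minus strand, it stood at 6.57, 5.54 and 4.64 CPM in the control, 21.9 and 29.6 CPM with Foxj1 CRISPR, 9.61 and 16.3 CPM with Foxn4 CRISPR and 56.0 and 43.1 CPM with the morpholino. Each group was above the control and the morpholino libraries were above all others. The log2 changes were 1.79 ± 0.30 (adjusted p = 0.00145), 0.95 ± 0.30 (adjusted p = 0.045) and 2.70 ± 0.30 (adjusted p = 0.000214). The first and last calls held whichever library was left out, and the Foxn4 CRISPR call ended without any of 8 libraries (0.52 to 1.29) and held without control replicate 1 only. Of the reads at this model, 29.7% matched it alone. The Foxn4 CRISPR call ended on unique reads (0.86, adjusted p = 0.0685), on all matching reads (0.21, adjusted p = 0.52) and summed per symbol (0.08, adjusted p = 0.837). Directly against Foxn4 CRISPR the morpholino caps were higher by 1.75 ± 0.34 (adjusted p = 0.0184), a call that ended without either Foxn4 CRISPR library (1.41 and 2.17) or morpholino replicate 1 (1.61).

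The most abundant KIF20A model gave another picture. On scaffold 100253 it stood at 87.0, 76.0 and 75.9 CPM in the control, 145 and 181 CPM with Foxj1 CRISPR, 71.1 and 117 CPM with Foxn4 CRISPR, and 90.0 and 110 CPM with the morpholino. It was called in no comparison, with 0.61 ± 0.27 (adjusted p = 0.0904) in the Foxj1 CRISPR caps and -0.11 ± 0.27 with the morpholino. A change below 0 beside raised CPM comes from the scaling factors of the libraries, which were 0.791 to 0.916 in the control and above 1 elsewhere. Summed over its 3 models, KIF20A was called with Foxj1 CRISPR (0.76, adjusted p = 0.0326) and not with the morpholino (0.40, adjusted p = 0.211).

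KIF23, a subunit of centralspindlin that bundles the midzone for cytokinesis, rose in both models with Foxj1 CRISPR and with the morpholino. On scaffold 36401 it stood at 5.25, 7.38 and 4.38 CPM in the control, at 18.1 and 17.8 CPM with Foxj1 CRISPR, at 8.54 and 11.2 CPM with Foxn4 CRISPR and at 18.3 and 17.4 CPM with the morpholino. The levels of the Foxj1 CRISPR and morpholino libraries were close to each other and apart from the control, with log2 changes of 1.26 ± 0.27 (adjusted p = 0.00458) and 1.23 ± 0.27 (adjusted p = 0.00463), and both calls held whichever library was left out. With Foxn4 CRISPR the change was 0.55 ± 0.27 (adjusted p = 0.16). The scaffold 58049 model went from 24.8, 37.2 and 20.8 CPM in the control to 63.1 and 75.0 CPM with Foxj1 CRISPR and 77.3 and 83.1 CPM with the morpholino. Its changes were 0.93 ± 0.27 (adjusted p = 0.0198) and 1.12 ± 0.27 (adjusted p = 0.0074), and the Foxj1 call ended without control replicate 3 (0.82) or either Foxj1 CRISPR library (1.05 and 0.79).

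KIFC1, a minus-end motor that focuses spindle poles, stood at 10.3, 18.0 and 12.7 CPM in the control, 39.9 and 37.2 CPM with Foxj1 CRISPR, 22.7 and 28.9 CPM with Foxn4 CRISPR and 54.6 and 42.9 CPM with the morpholino. All perturbed libraries lay above the highest control, control replicate 2. Its log2 changes were 1.09 ± 0.26 (adjusted p = 0.00743) with Foxj1 CRISPR, which ended as a call without Foxj1 CRISPR replicate 1 (1.05), and 1.40 ± 0.26 (adjusted p = 0.00198) with the morpholino. With Foxn4 CRISPR it was 0.67 ± 0.26 (adjusted p = 0.0855).

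KIF11, the motor that pushes the spindle poles apart, rose with Foxj1 CRISPR in both models. On scaffold 16863 it stood at 34.0, 25.4 and 27.4 CPM in the control, 71.6 and 71.0 CPM with Foxj1 CRISPR, 38.0 and 40.4 CPM with Foxn4 CRISPR, and 32.9 and 37.5 CPM with the morpholino. The Foxj1 CRISPR libraries stood above all others (0.88 ± 0.24, adjusted p = 0.0142), and the morpholino caps were lower than they by -1.03 ± 0.27 (adjusted p = 0.0428), a call that ended without any of 7 libraries (-1.20 to -0.90). The first call ended without either Foxj1 CRISPR library (0.88 for each). The scaffold 7555 model stood at 7.96, 9.17 and 4.05 CPM in the control and 22.8 and 33.0 CPM with Foxj1 CRISPR, with a change of 1.58 ± 0.42 (adjusted p = 0.013) that was not called without Foxj1 CRISPR replicate 2 (1.28). In the other perturbed libraries that model ranged from 5.97 to 15.8 CPM. Neither model was called with Foxn4 CRISPR or the morpholino against the control, nor between the CRISPR groups.

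Further rises with Foxj1 CRISPR were seen in KIF18A, which dampens chromosome movement at the metaphase plate, and in KIF2C, which takes apart microtubules at kinetochores. KIF18A went from 3.59, 6.40 and 2.86 CPM to 11.3 and 11.5 CPM (1.02 ± 0.34, adjusted p = 0.0357). KIF2C on scaffold 325141 went from 6.31, 7.71 and 7.91 CPM to 22.0 and 20.4 CPM (1.12 ± 0.33, adjusted p = 0.0211), and its copy on scaffold 179914 was not called (0.20 ± 0.27). The KIF18A call ended without control replicate 1 or 3 (0.96 and 0.86), either Foxj1 CRISPR library (1.03 and 1.01) or Foxn4 CRISPR replicate 2 (1.02). The KIF2C call ended without control replicate 1 (1.06) or either Foxj1 CRISPR library (1.07 and 1.17), on all matching reads (0.58, adjusted p = 0.112) and summed per symbol (0.60, adjusted p = 0.0878).

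The other mitotic models are given for completeness and were picked out after their values were seen. KIF18B on scaffold 56777 also rose with Foxj1 CRISPR (0.85 ± 0.29, adjusted p = 0.0386). KIF14 on scaffold 3586 was called with Foxj1 CRISPR and with the morpholino on very few reads, 3, 0 and 0 in the control libraries, 10 and 9 with Foxj1 CRISPR and 11 and 13 with the morpholino, so no fold is given. KIF4A on scaffold 43874, a chromokinesin, was the 1 mitotic model that fell, with the morpholino (-0.91 ± 0.32, adjusted p = 0.0382). The spindle motor KIF15 (24.1 to 65.0 CPM) and the cytokinesis kinesin KIF20B (87.7 to 152 CPM) were called in no comparison. Calls of KIF18B, KIF14 and KIF4A each ended without at least 1 library.

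**Figure D3:**
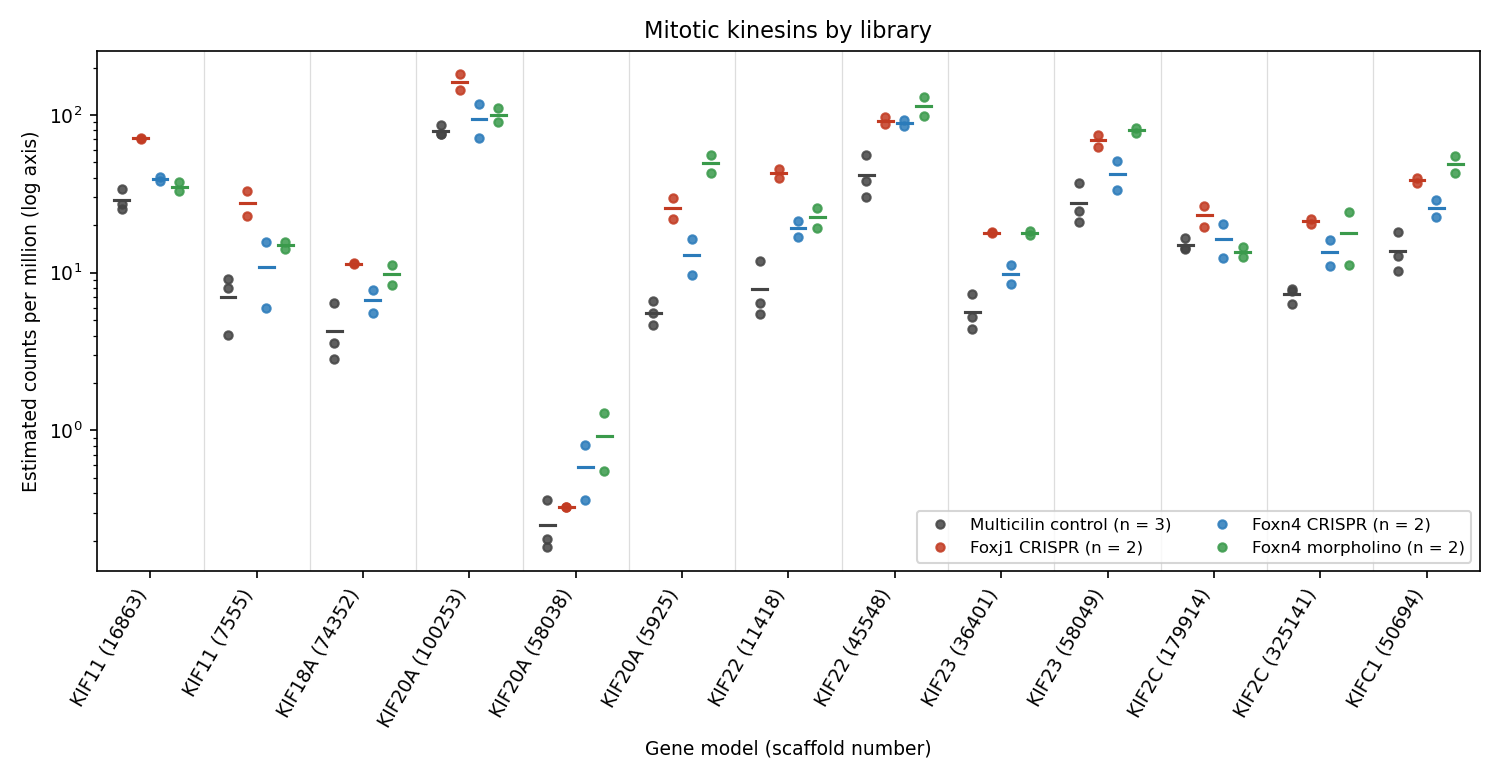
CPM on a log axis of the 13 named models of mitotic kinesins, with the scaffold number in parentheses, points for single libraries and short lines for group means. Heights compare libraries within a model and not models with each other. Foxj1 CRISPR points lie above the control for 12 of the 13 models, the exception being the scarce KIF20A model of scaffold 58038. Models were chosen for a low adjusted p, with the other copies of their symbols, so this count describes only the points drawn. The share of all models without overlap is not given. Divided by the scaling factors of the fit, KIF2C on scaffold 179914 overlapped the control too.

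Genes that work beside these motors were listed to set the kinesins in context. Of 48 tested models of mitotic partners, 13 rose and 3 fell with Foxj1 CRISPR (median 0.46, with 19.8% and 20.7% of all models called). With Foxn4 CRISPR 2 rose and 2 fell (median 0.01, 12.6% and 10.7% of all models), and with the morpholino 15 rose and 4 fell (median 0.27, 23.9% and 21.1% of all models). Among them, ECT2 on scaffold 58517, which switches on the contractile ring together with KIF23, rose by 1.73 ± 0.34 (adjusted p = 0.00341) with Foxj1 CRISPR. AURKB, the kinase of the passenger complex, rose by 1.41 ± 0.33 (adjusted p = 0.00745) on scaffold 233955. PRC1 on scaffold 9266, which bundles midzone microtubules, fell by a log2 change of -0.95 ± 0.32 (adjusted p = 0.0376), so not all midzone genes moved one way.

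Cargo and cytoplasmic kinesins split into rises and falls. With Foxj1 CRISPR 4 of 19 tested models rose and 8 fell (background 19.8% and 20.7%, median -0.66). Of these falls, 2 were the models of KIF2A, which also works in the spindle. With Foxn4 CRISPR 2 rose and 3 fell (background 12.6% and 10.7%, median -0.67), and with the morpholino 4 rose and 8 fell (background 23.9% and 21.1%, median -0.79). The share that rose was near or below the background throughout, and the share that fell was above it with Foxj1 CRISPR and the morpholino. The Foxj1 count of falls was 2 without Foxj1 CRISPR replicate 1, 4 without Foxj1 CRISPR replicate 2, 5 without control replicate 1 or 3, and 8 or 9 without any other library. The Foxn4 CRISPR count of falls was 0 without either Foxn4 CRISPR library and 6 without control replicate 2. The morpholino count of falls was 3 without morpholino replicate 1 and between 6 and 10 without any other library. The count of rises was 2 for Foxj1 CRISPR without either of its libraries, and 2 for the morpholino without control replicate 1 or 3 or morpholino replicate 1.

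KIF16B, which moves early endosomes towards the plus ends of microtubules, fell in every group. Its model at 9532983 to 9696209 on the plus strand of scaffold 12020 stood at 17.6, 17.5 and 8.35 CPM in the control, 2.36 and 4.2 CPM with Foxj1 CRISPR, 4.12 and 3.63 CPM with Foxn4 CRISPR and 3.52 and 1.62 CPM with the morpholino. Every perturbed library lay below the lowest control, control replicate 3. Its log2 changes were -2.54 ± 0.46 (adjusted p = 0.00221), -2.15 ± 0.46 (adjusted p = 0.00908) and -2.98 ± 0.48 (adjusted p = 0.00109). The Foxj1 CRISPR and morpholino calls held whichever library was left out, and the Foxn4 CRISPR call ended without either of its libraries (-2.24 and -2.05). On unique reads, which were 86.3% of those matching, the 3 changes were -2.50, -2.07 and -2.85, each called.

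KIF13B, a motor that carries membrane proteins to the cell surface, also fell in every group. Its model at 2445174 to 2603238 on the minus strand of scaffold 102262 stood at 34.7, 49.2 and 24.8 CPM in the control, 11.0 and 14.7 CPM with Foxj1 CRISPR, 19.4 and 16.0 CPM with Foxn4 CRISPR and 14.4 and 19.1 CPM with the morpholino. No group overlapped the control, and the Foxj1 CRISPR and morpholino values overlapped each other. Its log2 changes were -1.89 ± 0.32 (adjusted p = 0.00168), -1.28 ± 0.32 (adjusted p = 0.0173) and -1.52 ± 0.32 (adjusted p = 0.00395), of which the second ended without either Foxn4 CRISPR library (-1.42 and -1.14).

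Its relative KIF13A, which moves recycling endosomes, rose in every group, on a model with almost no reads of its own. At 1616585 to 1646094 on the plus strand of scaffold 11136 it stood at 3.29, 2.73 and 2.10 CPM in the control, 21.4 and 20.9 CPM with Foxj1 CRISPR, 21.2 and 19.9 CPM with Foxn4 CRISPR and 17.8 and 16.8 CPM with the morpholino. The groups were far apart, with log2 changes of 2.55 ± 0.27 (adjusted p = 0.000194), 2.66 ± 0.27 (adjusted p = 0.000272) and 2.24 ± 0.26 (adjusted p = 0.000266), and each call held whichever library was left out. Of its matching reads, 0.715% matched it alone, namely 6, 9 and 2 in the control, 21 and 18 with Foxj1 CRISPR, 20 and 24 with Foxn4 CRISPR, and 3 and 15 with the morpholino. On unique reads the changes were 2.12 (adjusted p = 0.0191), 2.74 (adjusted p = 0.0119) and 0.97 (adjusted p = 0.257), and on all matching reads they were -0.03, 0.03 and 0.41, none of them called. The KIF13A model on scaffold 90265 stood at 4.64, 2.12 and 2.70 CPM in the control and fell with Foxj1 CRISPR to 1.09 and 1.41 CPM (-1.78 ± 0.49, adjusted p = 0.0162). That call ended without control replicate 1 (-1.37) or either Foxj1 CRISPR library (-1.59 and -2.0). Of the reads at this copy 12.1% matched it alone. Its call also ended on unique reads (-1.39, adjusted p = 0.0871) and on all matching reads (-0.16, adjusted p = 0.753). Summed per symbol, KIF13A was called higher with Foxj1 CRISPR (1.54, adjusted p = 0.00217).

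The heavy chains of kinesin-1, the motor that carries mitochondria and many vesicles, moved in opposite directions between copies in the estimated counts. KIF5B on scaffold 17434 fell in every group, from 55.6, 68.0 and 36.9 CPM in the control to 23.7 and 30.7 CPM with Foxj1 CRISPR, 24.8 CPM in each Foxn4 CRISPR library, and 33.4 and 15.1 CPM with the morpholino. Its log2 changes were -1.38 ± 0.34 (adjusted p = 0.0103), -1.36 ± 0.34 (adjusted p = 0.0195) and -1.59 ± 0.35 (adjusted p = 0.0049). The first ended without Foxj1 CRISPR replicate 1 (-1.20) and the second without either Foxn4 CRISPR library (-1.35 for each). KIF5B on scaffold 52573 stood at 28.3, 37.1 and 24.7 CPM in the control, 77.9 and 58.8 CPM with Foxj1 CRISPR, 48.4 and 49.4 CPM with Foxn4 CRISPR, and 88.3 and 56.8 CPM with the morpholino. All perturbed libraries were above the control for this copy, and it rose with Foxj1 CRISPR (0.78 ± 0.25, adjusted p = 0.0283) and in the morpholino caps (0.83 ± 0.25, adjusted p = 0.0197). Those rises ended without control replicate 1 (0.79 and 0.81), control replicate 3 (0.72 and 0.75) or perturbed replicate 1 (0.57 and 0.54), and the Foxj1 rise also without Foxj1 CRISPR replicate 2 (0.97). Only 8.20% of the reads at the scaffold 52573 copy matched it alone. Its Foxj1 change was 0.665 (adjusted p = 0.189) on unique reads and -0.124 (adjusted p = 0.569) on all matching reads. With both copies summed KIF5B was called in none of the 3 comparisons, at -0.18, -0.41 and -0.21.

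KIF5C repeated this split at lower levels. On scaffold 21603 it stood at 4.40, 3.84 and 5.0 CPM in the control, 14.4 and 16.4 CPM with Foxj1 CRISPR, 19.7 and 20.6 CPM with Foxn4 CRISPR, and 8.27 and 10.4 CPM with the morpholino. The CRISPR groups were well above the control, with log2 changes of 1.37 ± 0.28 (adjusted p = 0.00391) and 1.91 ± 0.28 (adjusted p = 0.00166), and both calls held whichever library was left out. The morpholino change was 0.65 ± 0.28 (adjusted p = 0.0866). KIF5C on scaffold 4321 stood at 11.0, 3.93 and 8.93 CPM in the control and fell to 3.57 and 3.41 CPM with Foxj1 CRISPR (-1.64 ± 0.49, adjusted p = 0.0233). This fall ended without control replicate 1 (-1.31), control replicate 3 (-1.49) or either Foxj1 CRISPR library (-1.67 and -1.60). With the morpholino it was 3.39 and 5.41 CPM (-1.29 ± 0.48, adjusted p = 0.0493), a call that ended without any of 8 libraries (-1.76 to -0.97) and held without control replicate 2 only. On all matching reads the scaffold 21603 changes were -0.19 and -0.027 in the CRISPR groups, not called, and the scaffold 4321 model was called higher with the morpholino (1.30, adjusted p = 0.0024). About 10.0% of the reads at either copy matched it alone, and summed over copies KIF5C was called in no group.

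KIF2A, which shortens microtubules in the spindle and in neurons, fell with Foxj1 CRISPR in both models. On scaffold 99008 it stood at 359, 244 and 456 CPM in the control and at 195 and 242 CPM with Foxj1 CRISPR (-1.13 ± 0.32, adjusted p = 0.0176), just below the lowest control, control replicate 2. On scaffold 160877 it stood at 62.2, 29.9 and 82.2 CPM and at 23.7 and 36.7 CPM (-1.40 ± 0.45, adjusted p = 0.0322), where the groups overlapped. The first call ended without control replicate 3 (-0.84) or either Foxj1 CRISPR library (-0.98 and -1.31). The second ended without control replicate 1 or 3 (-1.33 and -1.0) or either Foxj1 CRISPR library (-1.11 and -1.76). In the Foxn4 CRISPR and morpholino caps neither model was called, with log2 changes between -0.72 and -0.31.

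KIFC3, a minus-end motor that anchors microtubules at cell junctions, had 3 tested models. On scaffold 137809 it stood at 52.9, 46.6 and 41.5 CPM in the control and at 19.9 and 31.0 CPM with the morpholino, with no overlap (-1.31 ± 0.32, adjusted p = 0.00819). On scaffold 15416 it stood at 6.27, 5.58 and 4.22 CPM, at 2.30 and 3.41 CPM with Foxj1 CRISPR (-1.33 ± 0.37, adjusted p = 0.0166) and at 2.46 and 2.63 CPM with the morpholino (-1.49 ± 0.37, adjusted p = 0.00924). Of the reads at the scaffold 15416 model 9.33% matched it alone. Its Foxj1 call ended on unique reads (-0.95, adjusted p = 0.133), on all matching reads (-0.82, adjusted p = 0.0509) and summed per symbol (-0.77, adjusted p = 0.0756), and its morpholino call on unique reads (-0.95, adjusted p = 0.13). The morpholino calls ended without morpholino replicate 1 (-0.99 and -1.40) and the Foxj1 call without Foxj1 CRISPR replicate 1 (-1.07). The scaffold 74339 model, at 63.9, 17.4 and 41.2 CPM in the control, was called nowhere, and it overlaps IFRD1 on the minus strand. KIF1C on scaffold 113187, a motor of secretory vesicles, stood at 24.4, 41.6 and 17.4 CPM in the control and fell with the morpholino to 16.6 and 15.5 CPM (-1.20 ± 0.33, adjusted p = 0.0144), and the call ended without either morpholino library (-1.20 and -1.22). KIF1C on scaffold 27067 was called in no comparison, at 4.17, 9.86 and 4.46 CPM in the control and 15.6 and 12.7 CPM with the morpholino.

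Some cargo kinesins moved with the morpholino and were picked out after their values were seen. KIF1B, a motor of mitochondria and synaptic vesicle precursors, stood at 3.31, 4.88 and 2.03 CPM in the control, 2.77 and 3.07 CPM with Foxj1 CRISPR, 2.69 and 2.45 CPM with Foxn4 CRISPR and 12.0 and 8.03 CPM with the morpholino. It was higher in the morpholino caps than in the control (1.13 ± 0.36, adjusted p = 0.0282), the Foxn4 CRISPR caps (1.79 ± 0.43, adjusted p = 0.0398) and the Foxj1 CRISPR caps (1.75 ± 0.42, adjusted p = 0.0348). KIF26B on scaffold 230550, an atypical kinesin, went the other way. It stood at 3.07, 2.01 and 7.67 CPM in the control, 10.6 and 14.8 CPM with Foxj1 CRISPR, 10.2 and 11.1 CPM with Foxn4 CRISPR and 0.350 and 2.03 CPM with the morpholino. The morpholino caps were below the Foxn4 CRISPR caps (-3.18 ± 0.79, adjusted p = 0.0443) and the Foxj1 CRISPR caps (-3.29 ± 0.79, adjusted p = 0.0343) with no overlap, and were lower than the control (-2.17 ± 0.73, adjusted p = 0.0345) with overlap. After division by the scaling factors of the fit, the morpholino libraries of KIF26B lay below all controls. Against the control, the KIF1B call ended without control replicate 1 (1.14), control replicate 3 (0.89) or morpholino replicate 1 (0.88), and the KIF26B call without control replicate 3 (-1.36) or morpholino replicate 1 (-1.50). Against the CRISPR groups each of these calls ended without at least 5 of the 9 libraries, with changes of 1.5 to 2.0 for KIF1B and -3.53 to -2.51 for KIF26B. The neuronal kinesin-1 KIF5A was called with the morpholino on 10 and 22 estimated reads against 0, 1 and 4 in the control, and not without morpholino replicate 2. KIF21A, which restrains microtubule growth at the cell cortex, rose with Foxj1 CRISPR (1.04 ± 0.36, adjusted p = 0.0428), and that call ended without any of 6 libraries (0.77 to 1.21).

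**Figure D4:**
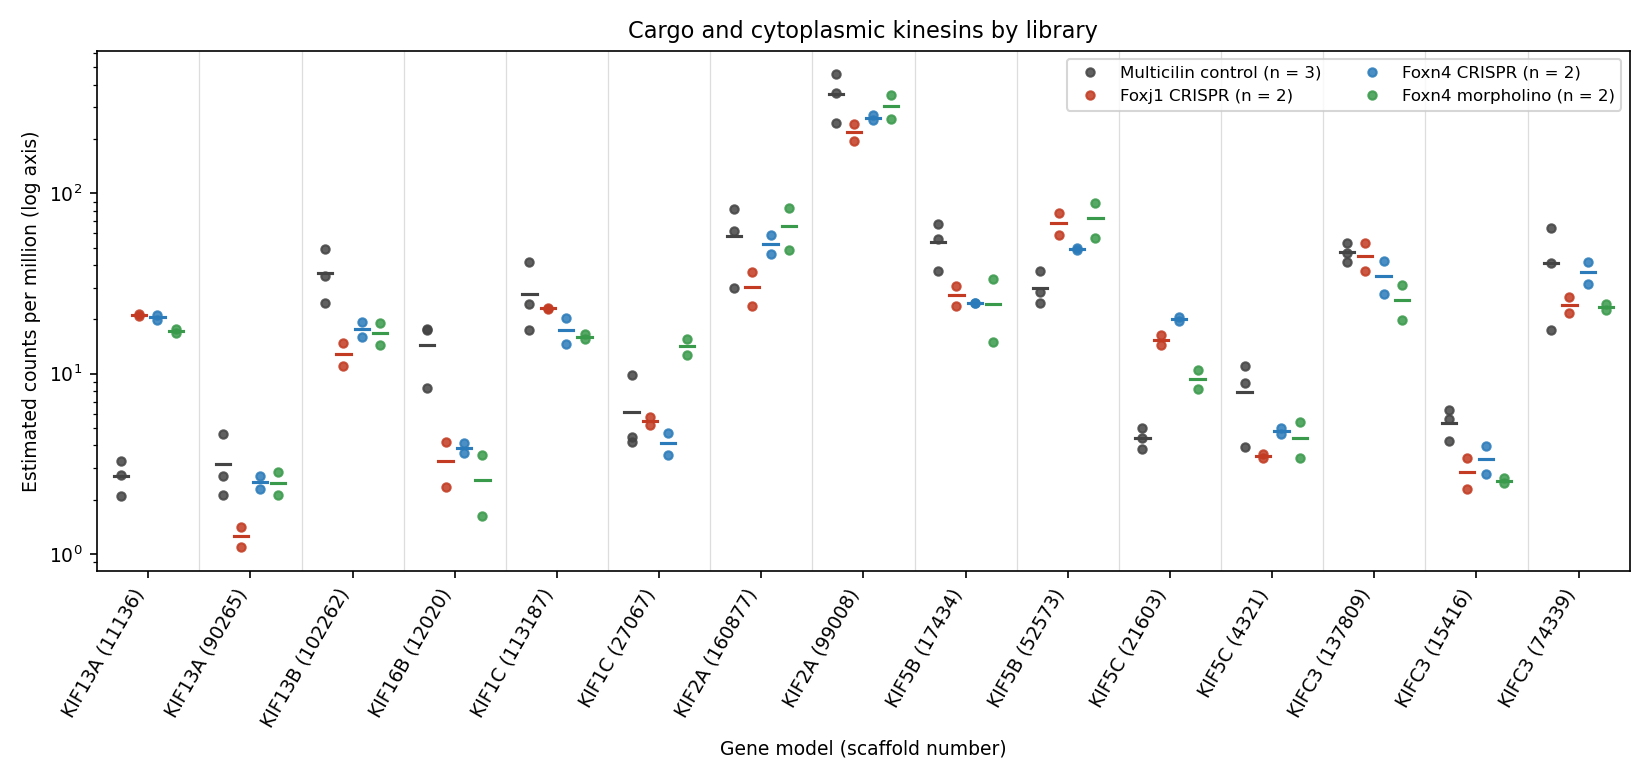
CPM on a log axis of the 15 named models of cargo and cytoplasmic kinesins, with points for single libraries and short lines for group means (scaffold number in parentheses). The copies of KIF5B, KIF5C and KIF13A lie on opposite sides of their controls with Foxj1 CRISPR, and KIF16B and KIF13B lie below the control in all 6 perturbed libraries. CPM of the copies of KIF5B, KIF5C and KIF13A depend on how shared reads were assigned.

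Partners of cargo kinesins moved in both directions. Of 31 tested models, 4 rose and 5 fell with Foxj1 CRISPR (19.8% and 20.7% of all models), 2 rose and 7 fell with Foxn4 CRISPR (12.6% and 10.7% of all models), and 4 rose and 4 fell with the morpholino (23.9% and 21.1% of all models). The light chain KLC1, which links kinesin-1 to its cargo, fell in both of the models called. On scaffold 12020 it changed by -1.59 ± 0.29 (adjusted p = 0.00241) with Foxj1 CRISPR and by -1.19 ± 0.29 (adjusted p = 0.00768) with the morpholino. On scaffold 34509 KLC1 changed by -2.13 ± 0.46 (adjusted p = 0.00523) and -2.52 ± 0.47 (adjusted p = 0.00237). Of 17 models of hedgehog and centriole partners, 3, 2 and 3 fell in the same order of groups and 0 rose, against the same shares over all models.

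**Figure D5:**
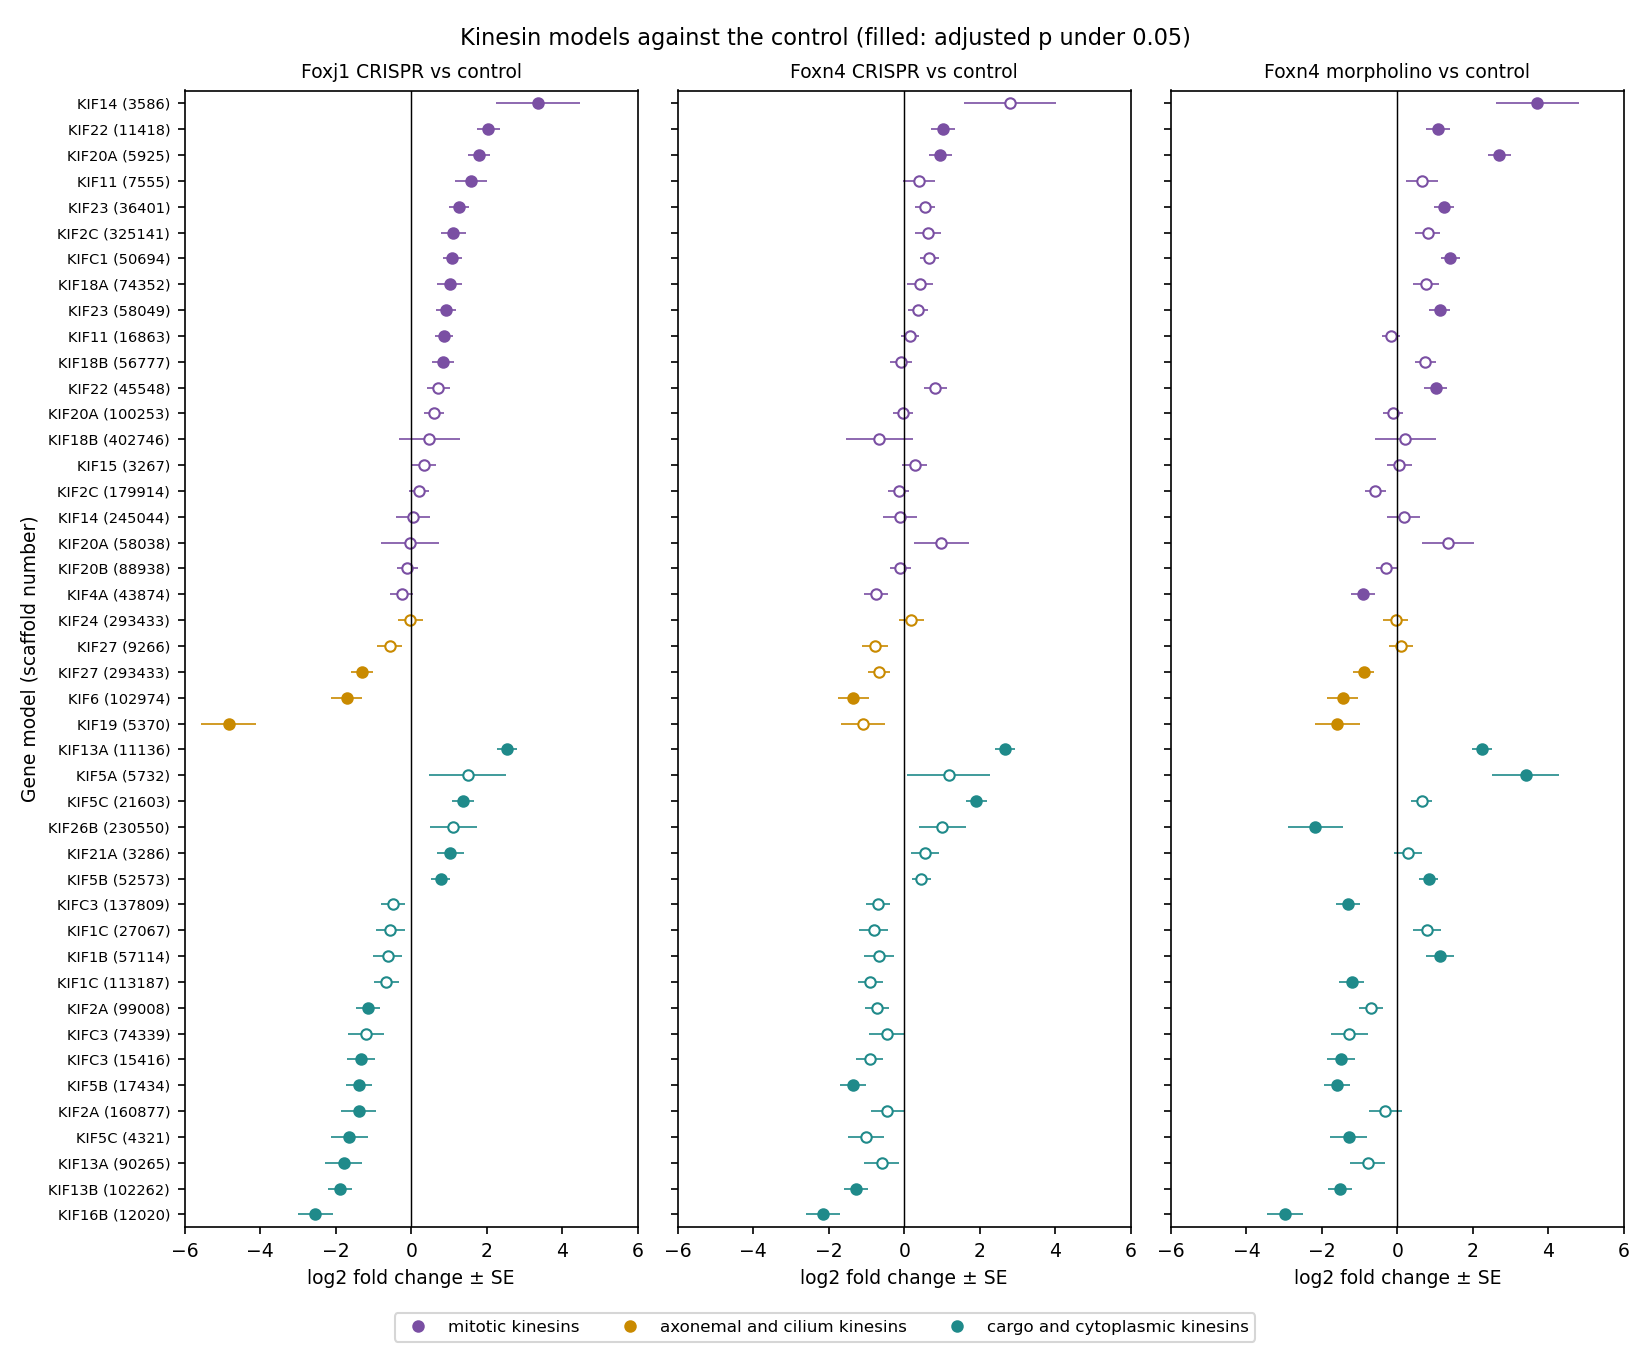
Log2 fold change ± standard error of the 44 tested kinesin models in each perturbed group against the control, with colours for the role and filled points for an adjusted p under 0.05 (edgeR). The mitotic models lie mostly to the right of 0 with Foxj1 CRISPR (11 called higher), and the called models of the cilium list lie to its left in all 3 panels. The fold of KIF14 on scaffold 3586 rests on 3 control reads.

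The perturbed groups came from the same study and were also compared with each other. Between Foxn4 CRISPR and Foxj1 CRISPR 1 of 44 kinesin models was called, KIF19, where 1.45% of all models were called, 1.43% higher and 0.021% lower. The KIF19 call ended without control replicate 3 (3.74), Foxj1 CRISPR replicate 1 (2.91), either Foxn4 CRISPR library (3.65 and 3.82) or either morpholino library (3.73 for each). No mitotic model was called by edgeR or DESeq2, although 6 were lower and 0 higher with Foxn4 CRISPR at an unadjusted p under 0.05, and the median log2 change was -0.56. The morpholino differed from Foxn4 CRISPR in 4 models (2 higher, 2 lower, background 5.47%, with 2.65% higher and 2.82% lower), namely KIF20A on scaffold 5925, KIF1B, KIF26B on scaffold 230550 and KIF5C on scaffold 21603. It differed from Foxj1 CRISPR in 4 models (2 higher, 2 lower, background 7.4%, with 4.7% higher and 2.7% lower), namely KIF19, KIF1B, KIF26B and KIF11 on scaffold 16863. These shares were near the background in each comparison. Without 1 library, the first of these counts ranged from 0 to 1, the next from 0 to 5 and the last from 0 to 6, and the first was 0 for each library named above. The count against Foxn4 CRISPR was 0 without either Foxn4 CRISPR library or morpholino replicate 1, 1 without control replicate 1 or either Foxj1 CRISPR library, and 2 without morpholino replicate 2. The count against Foxj1 CRISPR was 0 without Foxj1 CRISPR replicate 1 or morpholino replicate 1, 1 without Foxj1 CRISPR replicate 2, either Foxn4 CRISPR library or morpholino replicate 2, and 6 without control replicate 2. In that comparison KIF19 was higher with the morpholino, where 0 of its 137 and 417 reads matched it alone. On unique reads the direction of this KIF19 change reversed.

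Foxn4 binding near the starts of the kinesin models was read from the authors' peak lists, made from 1 library of Foxn4-GFP-HGR alone (65258 peaks) and 1 library of Foxn4-GFP-HGR with Multicilin (29673 peaks). These lists have no replicates and no test was made. A peak centre lay within 1 kb of the start of 32 of 50 kinesin models with Foxn4 alone, or 64.0%, against 53.3% of all models. With Multicilin it was 23 of 50, or 46.0%, against 31.4% of all models. Every kinesin model with a peak in the second list had one in the first, and 9 had one with Foxn4 alone only. Most models shared this order. Of all 24383 models, 7391 had a peak in both lists, 5602 with Foxn4 alone only and 270 with Multicilin only. With Multicilin, peaks lay near 4 of 5 models of the cilium list, 11 of 21 mitotic models and 8 of 24 cargo models. The cilium list was thus the most often bound and the cargo list was near the background. Of models that passed the RNA filter, 38.9% had such a peak over all models and 52.3% among kinesins.

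In the Multicilin list the peak at KIF6 was centred 5 bp from the start of the model, at 861551 to 861827 of scaffold 102974, with 96.3 times the tags of the input by the authors' count. The peak at KIF27 on scaffold 293433 lay at 106243 to 106519, with 69.3 times the input, and the PIGO model begins at the same place on the other strand. KIF19 had a weaker peak at 1244920 to 1245196 of scaffold 5370, with 11.6 times the input, where the BTBD17 model also ends. The highest fold over input was at KIF20B, 119 times, a gene called in no comparison. In normalized tags, the signal of a peak, KIF27 had 73.3, KIF20B 63.1, KIF6 50.9 and KIF19 24.4. The order by signal thus differed from the order by fold, and the input tags behind each fold were not examined. KIF24 had no peak within 1 kb in either list. Among the 23 tested models with a peak in this list, 1 rose and 4 fell with Foxn4 CRISPR, and among the 21 without one, 3 rose and 0 fell. With the morpholino 5 rose and 8 fell with a peak, and 6 rose and 4 fell without one. With Foxj1 CRISPR 8 rose and 8 fell with a peak, and 7 rose and 3 fell without one. Over all tested models, 12.6% rose and 10.7% fell with Foxn4 CRISPR. The shares were 23.9% and 21.1% with the morpholino, and 19.8% and 20.7% with Foxj1 CRISPR. These shares were not split by peak. The roles also differed in how often a peak lay near, so role and peak cannot be told apart here. The counts are a description and their difference was not tested.

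The authors' deposited table for Foxj1 CRISPR listed 3 kinesin models higher and 6 lower at an adjusted p under 0.05, with 13.7% of all listed models called. The higher models in the authors' deposited table were KIF11 on scaffold 7555, KIF20A on scaffold 5925 and KIF22 on scaffold 11418. The lower ones in the authors' deposited table were KIF19, KIF6, KIF27 on scaffold 293433, KIF13B, KIF13A on scaffold 90265 and KIF5C on scaffold 4321. All 9 were called in the same direction here, and of the other models called here 12 higher and 5 lower ones were not called in the authors' deposited table. The means in the authors' deposited table weight its libraries as 2 perturbed and 5 control ones, so it does not rest on the same 3 controls, while the other deposited tables weight 3 controls. The authors' deposited table for Foxn4 CRISPR held 2 higher and 2 lower (8.73% of all called), again with the direction found here. Of the other models called here with Foxn4 CRISPR, 2 higher and 2 lower ones were not called in the authors' deposited table, KIF6 among them. The authors' deposited table for the morpholino held 8 higher and 2 lower (17.5% of all called), of which KIF18A was not called here. Of the models called here with the morpholino, 4 higher and 10 lower ones were not called in the authors' deposited table. The falls of KIF6, KIF27 on scaffold 293433 and KIF19 were among these.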

How the data were processed

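RNA was measured in 9 libraries of animal caps and Foxn4 binding in 2 ChIP libraries. The authors deposited estimated counts per gene model, made with eXpress, with counts of reads matching each model at all or alone and TPM, per the file headers. STAR, eXpress, DESeq, Bowtie2 and HOMER are named in the submitters' processing notes, with versions not given in the sources used. The deposited peak lists give normalized tags (a signal) and the fold, or ratio, over the input for each peak, per the file headers. The deposited tables of the authors' comparisons give log2 fold changes and adjusted p-values, which were turned so that positive means higher in the perturbed caps. CPM here are estimated counts divided by a library's total.

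Estimated counts were rounded and fitted with edgeR 4.0.16 (R 4.3.3; quasi-likelihood test, TMM scaling, default filter on low counts, 4 groups, Benjamini-Hochberg adjustment over 19058 models, threshold 0.05). Alternatives were DESeq2 1.42.0, other scaling, no filter, reads matching alone or at all, sums per symbol, a replicate term, only the groups compared, and leaving out each library. Tables and plots used Python 3.11.15, pandas 2.3.3 and matplotlib 3.10.9. Peak centres within 1 kb of a model's start were counted. Per role, up to 10 models with the lowest adjusted p and a group mean of at least 5 CPM were named, with the other tested models of those symbols. The members and lists were chosen with earlier results of these data known. Tested on simulated data for Foxj1 CRISPR against control (18619 models), the fit recovered 84.6% of models raised by a log2 change of 2 and 17.0% of those raised by 1. It recovered 73.3% of models lowered by 2 and 19.5% of those lowered by 1, with 6 false calls among 18419 unchanged models. The simulated counts had a spread set by level alone and no difference between studies, so the false calls do not carry over to these data. Input libraries of the ChIP experiments were left out, since no processed values of theirs were used.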

Additional observations from a re-analysis of the deposited data

How the results depend on the processing

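Among the 54 called pairs of a named model and a comparison, DESeq2 and the fit without a filter kept 54 and RLE scaling kept 53. Unique reads kept 41, all matching reads 37, sums per symbol 36, the replicate block 36 and fitting only the groups compared 43. Counts of called kinesin models moved by over 1.5 times in these settings. Sums per symbol gave 15 (26 as reported) for Foxj1 CRISPR, 5 (8) for Foxn4 CRISPR, 13 (23) for the morpholino and 2 (4) for the morpholino against Foxn4 CRISPR, where fewer units were tested. All matching reads gave 13 (8) for Foxn4 CRISPR and 13 (4) for the morpholino against Foxj1 CRISPR. Fitting only the groups compared gave 0 (1) for Foxn4 CRISPR against Foxj1 CRISPR. Leaving out 1 library gave 9 to 25 calls for Foxj1 CRISPR, 2 to 12 for Foxn4 CRISPR and 10 to 27 for the morpholino, and 0 to 1, 0 to 5 and 0 to 6 between perturbed groups. Directions reversed with all matching reads for KIF13A on scaffold 11136 (-0.033, Foxj1), KIF5B on 52573 (-0.12, Foxj1), KIF5C on 21603 (-0.19 Foxj1, -0.027 Foxn4 CRISPR, 0.39 morpholino against Foxn4 CRISPR) and KIF5C on 4321 (0.32 Foxj1, 1.30 morpholino, itself called at an adjusted p of 0.0024). They reversed with sums per symbol for KIF13A on 90265 (1.54, Foxj1), KIF5B on 52573 (-0.18 Foxj1, -0.21 morpholino) and KIF5C on 4321 (0.21, Foxj1). They reversed on unique reads for KIF19 (2.54 Foxj1, -7.48 morpholino against Foxj1 CRISPR). Apart from the smaller number of units, the cause was not tested.

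The labels do not say that equal replicate numbers mark a shared clutch or day, so the numbers were not taken as pairs in the main fit. In their deviations from group means, same-numbered libraries correlated at -0.142 to -0.017 with the control. The value was 0.515 between the CRISPR groups, and 0.174 and 0.092 between the morpholino and Foxj1 CRISPR or Foxn4 CRISPR. Whether same-numbered libraries of the CRISPR groups shared a clutch or day was not tested. With the replicate block the calls were 15 (23) for the morpholino, 0 (1) for Foxn4 CRISPR against Foxj1 CRISPR and 2 (4) for the morpholino against Foxj1 CRISPR. Over all 19058 models, Foxn4 CRISPR against Foxj1 CRISPR had 276 calls in the main fit and 0 with the block. Of the named models, the calls that ended under the block were KIF18A, both KIF2A models, KIF5B on 52573 and KIF5C on 4321 for Foxj1 CRISPR, and KIF20A on 5925, KIF22 on 11418 and KIF6 for Foxn4 CRISPR. For the morpholino they were KIF19, KIF22 on 11418, KIF27, KIF5B on 52573, KIF5C on 4321 and KIF6. Between perturbed groups they were KIF19 (both comparisons), KIF5C on 21603 and KIF11 on 16863.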
